A study of Brassica rapa with 9 samples.

Results

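The core circadian clock genes described here are 6 genes of Brassica rapa, chosen by gene ID among the 41020 IDs counted in each library. They are Bra004503 (CCA1), Bra030496 and Bra033291 (the copies of LHY), Bra004507 (PRR9), Bra012964 (TOC1) and Bra024536 (GI). All 6 had enough reads to be tested, among 27967 tested genes. The names are those under which the IDs were chosen. The count files hold IDs alone, and the reference gene table matched none of the 6, so the names and any sharing of reads between near-identical gene copies were not checked here. Another 33 clock and clock-output genes had been listed by symbol, and none could be tied to an ID.

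RNA was sequenced from whole seedlings of Kimchi cabbage, cultivar Chiifu, at an age of 2 weeks. All plants grew on MS medium with 0.5% sucrose under the photoperiod that the labels abbreviate LD, without heat treatment. The 3 genotypes were non-transgenic plants (NT), plants with the phytochrome B gene of Arabidopsis thaliana (AtPHYB), and plants with a form of that gene in which glycine 564 is changed to glutamate (G564E), with 3 libraries each. The labels used here give no promoter of the transgene, no number of independent lines, no hour of harvest, and nothing on whether a replicate was 1 plant or a pool. The p-values therefore measure the spread between these libraries, part of which may be technical.

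In Arabidopsis the clock is a loop of genes that repress one another at successive times of day. CCA1 and LHY encode closely related MYB transcription factors that accumulate around dawn and repress evening genes, among them TOC1 and GI. PRR9 and TOC1 belong to the pseudo-response regulators, which repress CCA1 and LHY in turn, PRR9 in the morning and TOC1 from the evening. GI encodes a large protein that peaks late in the day, stabilises the photoreceptor ZEITLUPE and links the clock to flowering. Phytochrome B, which senses red and far-red light, is one route by which light sets the phase of this loop.

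Libraries held 15262884 to 20998541 counted reads. G564E replicate 1 stood apart from its group, with Spearman correlations of 0.912 to 0.915 to the other G564E libraries, while those had 0.985 between them. NT replicate 3 was closer to AtPHYB replicate 3 (0.978) than to the other NT libraries (0.963 and 0.967). The TMM scaling factors were 1.16 to 1.22 in G564E and 0.826 to 0.974 in the remaining libraries. Over all tested genes the median log2 fold change of G564E was 0.02 against NT and 0.05 against AtPHYB, and it was 0.34 and 0.47 when libraries were scaled by their size alone. Levels are given below as CPM on TMM-scaled library sizes, which are not divided by gene length, so levels of different genes are not compared.

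Both LHY copies were several times higher in G564E than in NT and AtPHYB, whereas CCA1, TOC1 and GI were lower in G564E than in AtPHYB. PRR9 was higher in G564E than in AtPHYB. In that comparison 35.0% of all tested genes were called. Over 18 alternatives at the same threshold, both LHY copies and TOC1 kept their calls against AtPHYB. The calls of CCA1, PRR9 and GI were lost in 10, 7 and 4 of them. No clock gene passed the test between AtPHYB and NT. Because seedlings were sampled whole, fewer cells expressing a gene and less RNA per cell cannot be told apart in any of these results. Each gene is given first by library, and the tests follow.

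**Figure D1:**
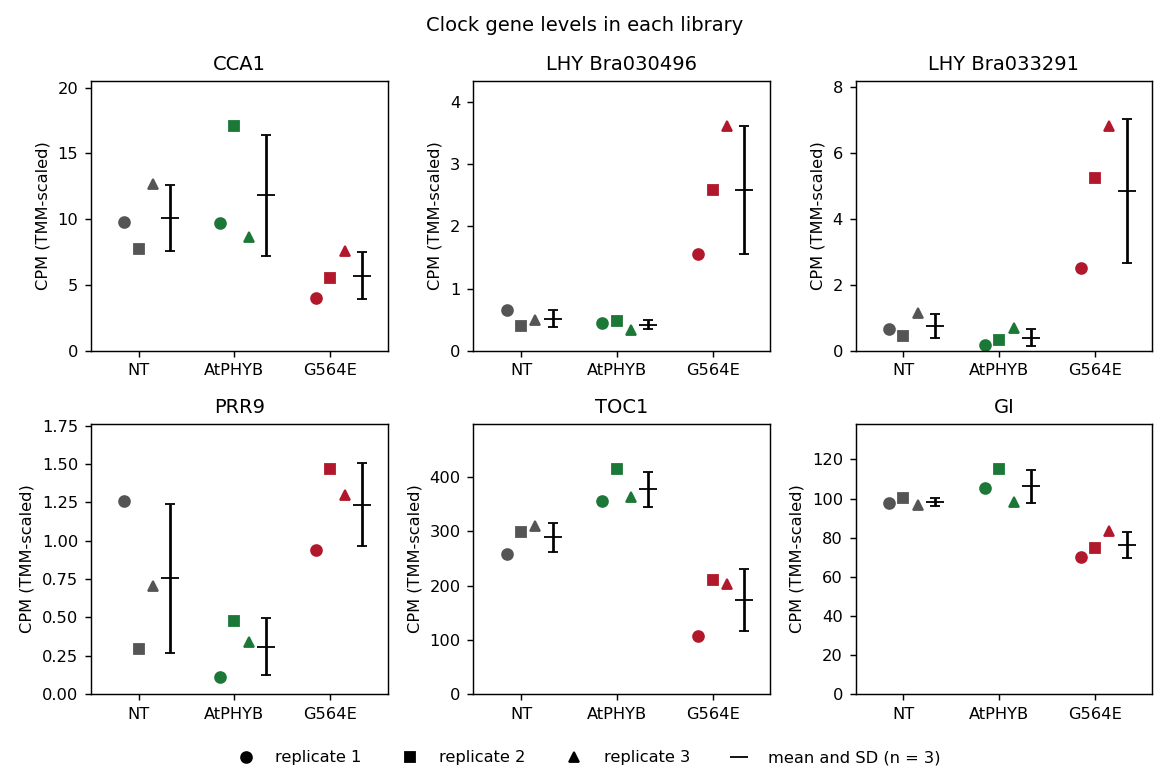
TMM-scaled CPM of the 6 clock genes (y axes, linear, from 0) in the 3 libraries of each genotype (x axis); symbols mark replicates 1 to 3 and bars the mean and SD (n = 3). On this scaling every G564E library is above all NT and AtPHYB libraries for both LHY copies and below all of them for CCA1, TOC1 and GI. With library size alone, G564E overlaps with NT and AtPHYB for CCA1 and GI.

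The LHY copy Bra030496 had levels of 0.659, 0.391 and 0.489 CPM in replicates 1, 2 and 3 of NT, and of 0.443, 0.475 and 0.341 CPM in AtPHYB. In G564E its values were 1.56, 2.59 and 3.62 CPM. The G564E libraries were above all others, and replicate 3 was the highest. Separation in this direction was seen at 22.2% of all tested genes against NT and at 25.8% against AtPHYB. These values rest on few reads, with 28 reads summed over NT (exact 95% Poisson interval 18.6 to 40.5), 21 over AtPHYB (13.0 to 32.1) and 159 over G564E (135 to 186). Such intervals describe counting error alone and leave out the spread between libraries. They are too narrow where PCR copies of 1 molecule were counted more than once.

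The LHY copy Bra033291 was at 0.659, 0.440 and 1.14 CPM in the NT replicates and at 0.166, 0.339 and 0.681 CPM in AtPHYB. In G564E it reached 2.49, 5.24 and 6.81 CPM. Again all G564E libraries were above all others, and G564E replicate 1 was the lowest of its group. The NT and AtPHYB libraries overlapped. Summed reads were 41 in NT (exact 95% Poisson interval 29.4 to 55.6), 20 in AtPHYB (12.2 to 30.9) and 296 in G564E (263 to 332).

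Reads of the LHY copies were also added up, a quantity that does not depend on how reads were split between them and that was chosen after the values were seen. The sum was 22, 17 and 30 reads in the NT replicates, 11, 12 and 18 in AtPHYB, and 91, 139 and 225 in G564E. The lowest G564E library thus held more LHY reads than any NT or AtPHYB library.

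CCA1, the close relative of LHY, did not follow it. It was at 9.83, 7.73 and 12.7 CPM in the NT replicates, at 9.70, 17.1 and 8.68 CPM in AtPHYB, and at 4.01, 5.52 and 7.56 CPM in G564E. AtPHYB replicate 2 was the highest library of all. The highest G564E value lay just under the lowest NT value, so these groups were separated by a narrow margin. With library size alone the separation from NT and AtPHYB was lost. G564E replicate 3 held 163 CCA1 reads, against 158 in NT replicate 2 and 153 in AtPHYB replicate 3, both larger libraries. Of all tested genes 21.6% were lower in every G564E library than in every NT library, and 24.6% than in every AtPHYB library. For CCA1, NT and AtPHYB overlapped.

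PRR9 was counted at 1.26, 0.294 and 0.706 CPM in the NT replicates, 0.111, 0.475 and 0.341 CPM in AtPHYB and 0.935, 1.47 and 1.30 CPM in G564E. NT replicate 1 fell within the G564E range, while all AtPHYB libraries were below all G564E libraries, as at 25.8% of all tested genes. Its values rest on few reads, with 2 to 7 per library in AtPHYB, against 6 to 21 in NT and 21 to 28 in G564E.

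TOC1 reached 258, 299 and 310 CPM in the NT replicates, 356, 415 and 363 CPM in AtPHYB, and 107, 210 and 203 CPM in G564E. The genotypes followed the order G564E, NT, AtPHYB with no overlap between neighbours. Of all tested genes 21.6% were lower in every G564E library than in every NT library. Another step, AtPHYB above NT in all libraries, was seen at 13.2%. The share of genes with both steps was not computed. The G564E libraries were uneven, with replicate 1 far below the other two. With 2409 to 6414 reads per library, counting error was small here.

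GI was at 97.6, 100.3 and 96.5 CPM in the NT replicates, 105.5, 115 and 98.2 CPM in AtPHYB and 70.2, 74.9 and 83.4 CPM in G564E. Its order of means was the same as that of TOC1. NT and AtPHYB overlapped, and all G564E libraries were below both. Separation in this direction was seen at 21.6% of all tested genes against NT and at 24.6% against AtPHYB. With library size alone the separation of GI was lost. G564E replicate 3 held 1800 GI reads, against 1777 in NT replicate 3 and 1730 in AtPHYB replicate 3, both larger libraries. Within NT the GI libraries differed little, with a coefficient of variation of 1.97%.

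AtPHYB was first compared with NT, a contrast of the unmodified receptor with no transgene. None of the 6 clock genes passed the test (edgeR quasi-likelihood test, 2-sided, Benjamini-Hochberg adjusted p under 0.05 over all tested genes), and 0.190% of all tested genes did. Without an adjustment, 0 of the 6 and 3793 of the 27967 tested genes had a p under 0.05. DESeq2 and limma-voom also called 0 of the 6, and 961 and 47 of all tested genes. The members' median log2 fold change was -0.08, against -0.00488 for all tested genes.

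TOC1 was the one clock gene whose AtPHYB and NT libraries did not overlap, with 378 ± 32.5 CPM against 289 ± 27.1 CPM (mean ± SD of 3 libraries). Of all tested genes 13.2% were separated in this direction. The log2 fold change of TOC1 was 0.39 with a 95% interval of -0.17 to 0.94 (edgeR adjusted p = 0.526). For CCA1 it was 0.23 (-0.52 to 0.98) and for GI 0.11 (-0.16 to 0.39). These intervals use a spread estimated with the G564E libraries as well. In a fit of AtPHYB and NT alone the SE of TOC1 was 0.13 (edgeR adjusted p = 0.173), against 0.25 over all libraries. Without NT replicate 3 and G564E replicate 1 that SE was also 0.13 (edgeR adjusted p = 0.0706).

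The low-count genes were less tightly bounded. LHY Bra030496 differed by -0.28 (95% interval -1.29 to 0.72), LHY Bra033291 by -0.90 (-2.31 to 0.51) and PRR9 by -1.28 (-2.75 to 0.20) on the log2 scale. Their adjusted p-values were 0.818, 0.561 and 0.433 (edgeR). The direction of CCA1 depended on AtPHYB replicate 2, without which its log2 fold change was -0.13. No clock gene thus passed the test here, and the intervals of LHY and PRR9 include changes of more than 1 on the log2 scale. The number of genes called depended on NT replicate 3, which lay close to AtPHYB replicate 3. Without it 783 of all tested genes were called, against 53 with it, and still 0 of the 6 clock genes. Without G564E replicate 1 as well, 3432 were called, and again 0 of the 6.

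The second comparison set the G564E plants against NT. The LHY copies rose, and the other 4 genes did not pass the test. Of all tested genes 27.0% were called in either direction and 13.8% as higher in G564E. LHY Bra030496 rose from 0.513 ± 0.135 CPM in NT to 2.59 ± 1.03 CPM in G564E (mean ± SD of 3 libraries), a log2 difference of 2.33 ± 0.41 (SE), or 5.02-fold (edgeR adjusted p = 0.00494). LHY Bra033291 rose from 0.747 ± 0.358 to 4.85 ± 2.19 CPM, a log2 difference of 2.69 ± 0.57 (SE), or 6.46-fold (edgeR adjusted p = 0.0103). Higher log2 fold changes were found at 3.14% and 2.38% of all tested genes, respectively. With both G564E replicate 1 and NT replicate 3 left out, the log2 fold changes were 2.56 and 3.45 (edgeR adjusted p = 0.00339 and 0.00249). In a fit of these genotypes alone with the replicate number as a block, Bra030496 was not called and Bra033291 was (edgeR adjusted p = 0.0781 and 0.0464).

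On TMM-scaled CPM, CCA1, TOC1 and GI were lower in every G564E library than in every NT library, as 21.6% of all tested genes were. They missed the threshold of the test. The log2 fold change of CCA1 was -0.82 (95% interval -1.58 to -0.07, edgeR adjusted p = 0.0979), that of TOC1 -0.74 (-1.30 to -0.18, adjusted p = 0.0551) and that of GI -0.37 (-0.64 to -0.09, adjusted p = 0.0518). The intervals are for single genes and are not adjusted for the number of genes. PRR9 had a log2 fold change of 0.72 (-0.61 to 2.05, adjusted p = 0.391).

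Without G564E replicate 1 the TOC1 difference shrank to -0.49 on the log2 scale, yet it then passed the test (edgeR adjusted p = 0.0247). TOC1 was also called by DESeq2 (adjusted p = 0.0186) and limma-voom (0.0471), and GI by DESeq2 (0.00909). With the replicate number as a block, TOC1 passed in a fit of all libraries (edgeR adjusted p = 0.0391) and not in these genotypes alone (0.103). With library size alone as the scaling, where the median of all genes was 0.34, the log2 fold changes were -0.51 for CCA1, -0.43 for TOC1 and -0.05 for GI (edgeR adjusted p = 0.214, 0.165 and 0.738).

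The third comparison set G564E directly against the unmodified receptor, and all 6 clock genes passed the test, 3 higher and 3 lower. The replicate number was also used as a block, which treats same-numbered libraries as matched. With it, 4 of the 6 passed in a fit of all libraries and 4 in a fit of these genotypes alone. Those fits called 9045 and 9251 of all tested genes. Without the block 9777 (35.0%) of all tested genes were called, 18.4% higher and 16.6% lower. The median absolute log2 fold change was 1.56 over the members and 0.55 over all tested genes. This comparison uses the same G564E libraries as the previous one, so their results are not independent.

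LHY Bra033291 had the highest rise of the 6, from 0.396 ± 0.262 CPM in AtPHYB to 4.85 ± 2.19 CPM in G564E, a log2 difference of 3.59 ± 0.61 (SE), or 12.0-fold (edgeR adjusted p = 0.00316). LHY Bra030496 rose from 0.420 ± 0.0702 to 2.59 ± 1.03 CPM, a log2 difference of 2.61 ± 0.43 (SE), or 6.10-fold (edgeR adjusted p = 0.00256). PRR9 rose from 0.309 ± 0.184 to 1.23 ± 0.271 CPM, a log2 difference of 1.99 ± 0.64 (SE) (edgeR adjusted p = 0.0397). The PRR9 call was lost without NT replicate 3 (0.0564), any of AtPHYB replicates 1, 2 and 3 (0.116, 0.0614 and 0.103), or G564E replicates 2 and 3 (0.0961 and 0.0853, all edgeR adjusted p).

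TOC1 fell from 378 ± 32.5 CPM in AtPHYB to 174 ± 57.5 CPM in G564E, a log2 difference of -1.12 ± 0.25 (SE) (edgeR adjusted p = 0.00934), and its log2 fold change was -0.87 without G564E replicate 1 (adjusted p = 0.00178). GI fell from 106 ± 8.44 to 76.2 ± 6.71 CPM, a log2 difference of -0.48 ± 0.12 (SE) (edgeR adjusted p = 0.0156). With library size alone as the scaling, the log2 fold change of GI was -0.06 (adjusted p = 0.676), in a fit where the median of all genes stood at 0.47. The GI call was also lost without AtPHYB replicate 2 (adjusted p = 0.0580) and G564E replicate 2 (0.0506).

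CCA1 fell from 11.8 ± 4.59 CPM in AtPHYB to 5.70 ± 1.78 CPM in G564E, a log2 difference of -1.05 ± 0.34 (SE) (edgeR adjusted p = 0.0389). Without AtPHYB replicate 2, its highest library, the log2 fold change was -0.70 (adjusted p = 0.145). The call was also lost without NT replicate 1 (0.0576), AtPHYB replicate 1 (0.0554), and G564E replicates 1 and 2 (0.0717 and 0.0931), with library size alone (0.119), and in a fit of these genotypes alone (0.0594). With the replicate block the adjusted p of CCA1 was 0.0518 over all libraries and 0.0578 in these genotypes alone (edgeR). In the same order it was 0.0749 and 0.0297 for PRR9, and 0.0340 and 0.0609 for GI. The LHY copies and TOC1 passed in both.

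**Figure D2:**
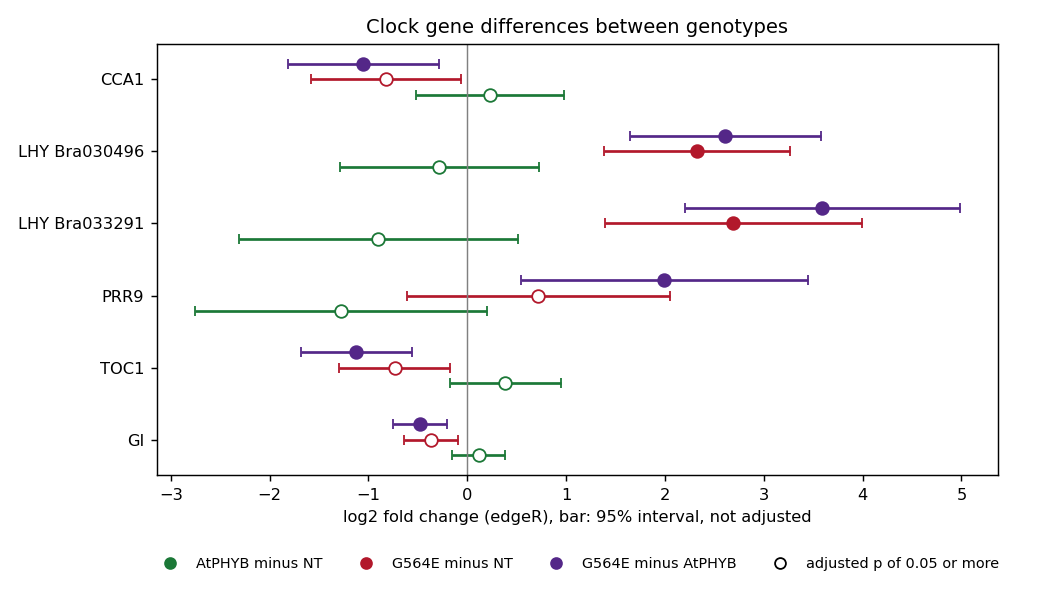
Log2 fold changes (x axis) of the 6 clock genes (y axis) in the 3 comparisons, with unadjusted 95% intervals as bars; filled circles have an edgeR adjusted p under 0.05. LHY Bra033291 reaches 3.59 for G564E minus AtPHYB, and every circle of AtPHYB minus NT is open.

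The balance between clock genes was then followed within each library as the log2 ratio of their counts, which does not depend on how libraries are scaled. Only the change of a ratio between genotypes is read, because gene lengths enter its level. No test was made of these ratios. An offset of 0.5 was added to each count.

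The ratio of LHY to CCA1 separated G564E from the rest, in a pair of ratios added after the data were seen. For Bra030496 it was -1.16 ± 0.162 in G564E, against -4.23 ± 0.394 in NT and -4.67 ± 0.364 in AtPHYB (mean ± SD of 3 libraries). For Bra033291 it was -0.30 ± 0.330 in G564E, -3.78 ± 0.310 in NT and -4.93 ± 1.14 in AtPHYB. The G564E libraries lay above all others in both, and G564E replicate 1, the lowest G564E library in single levels, was at -1.35 and -0.68, far from the highest remaining values of -3.84 and -3.45.

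The ratio of CCA1 to TOC1 showed no such separation. It was -4.86 ± 0.357 in NT, -5.06 ± 0.407 in AtPHYB and -4.91 ± 0.289 in G564E, with overlap between all groups. The ratio of CCA1 to GI was -3.31 ± 0.386, -3.23 ± 0.416 and -3.78 ± 0.332, also with overlap. In Arabidopsis CCA1 and TOC1 peak at opposite times of day. The hour of harvest is not given here, and the phase of the clock was not tested. Their log2 fold changes in G564E minus AtPHYB were -1.05 and -1.12, and -0.62 and -0.71 with library size alone. The CCA1 call was lost in 10 of 18 alternatives.

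The evening genes differed from each other in their balance. TOC1 to GI stood at 1.55 ± 0.140 in NT, 1.83 ± 0.0688 in AtPHYB and 1.13 ± 0.458 in G564E. The AtPHYB libraries, at 1.75 to 1.89, were above all NT libraries, at 1.40 to 1.68. The G564E range of 0.61 to 1.49 overlapped with NT, and its low end was replicate 1.

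PRR9 to TOC1, pseudo-response regulators both, was at -8.75 ± 1.11 in NT, -10.3 ± 0.887 in AtPHYB and -7.07 ± 0.236 in G564E. All G564E libraries were above all NT libraries in this ratio, although PRR9 alone overlapped between them. The LHY copies kept no clear order in their own ratio of Bra033291 to Bra030496, which was 0.45 ± 0.639 in NT, -0.26 ± 1.12 in AtPHYB and 0.86 ± 0.174 in G564E. The wide spread in AtPHYB goes with counts of 3 to 12 reads per copy and library.

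**Figure D3:**
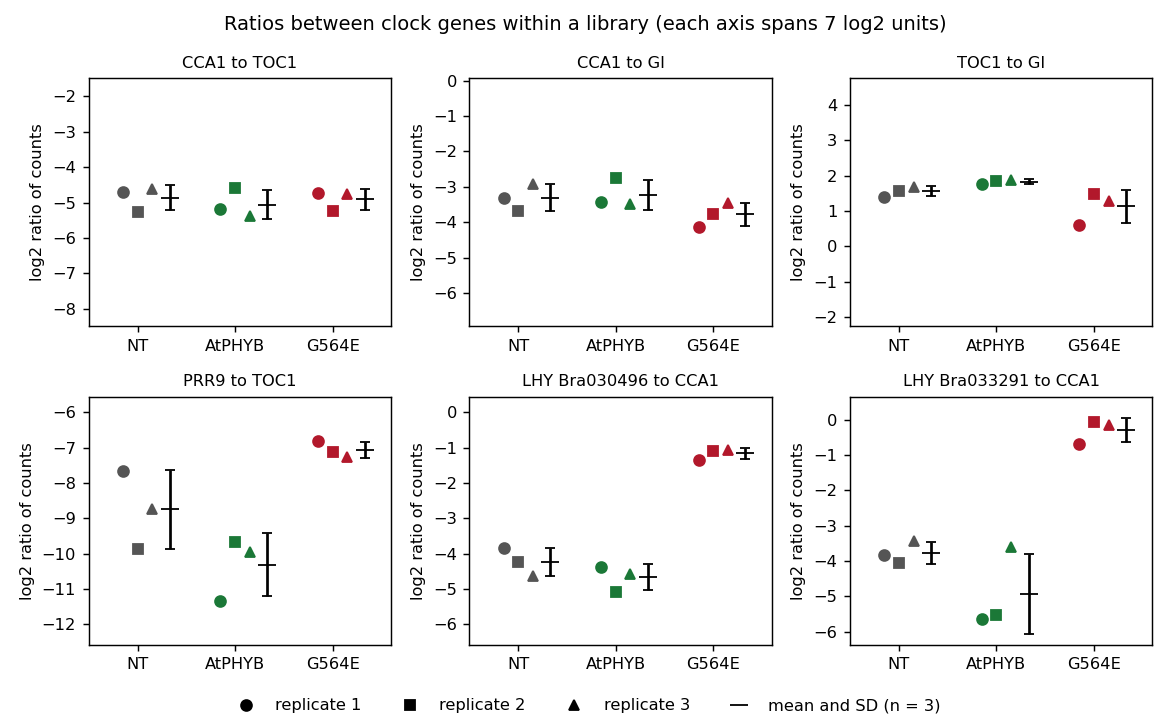
Log2 ratio of counts between pairs of clock genes (y axes, each spanning the same range) in every library by genotype (x axis), with the mean and SD (n = 3) as bars. The ratios of both LHY copies to CCA1 are -1.35 or more in G564E and -3.45 or less elsewhere, whereas the ratio of CCA1 to TOC1 overlaps between all genotypes.

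Likeness of profiles was measured as the root mean square difference of centred log2(CPM + 0.5) values over the 9 libraries, an offset that understates differences at low levels. By this measure the LHY copies differed by 0.47, with 1509 of the tested genes closer to Bra030496 than its copy was. CCA1 was nearer to TOC1, at 0.30, than to Bra030496, at 1.22, or Bra033291, at 1.56. Of the tested genes 647 were closer to CCA1 than TOC1 was. Among the clock genes PRR9 was nearest to LHY Bra030496, at 0.52, and 2230 tested genes were closer to that copy than PRR9 was. It differed by 0.73 from GI and by 0.79 from LHY Bra033291. These distances are a description of these libraries and have no test.

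Genes outside the clock set with similar profiles are known by ID only. Among 19335 genes with a mean of at least 5 CPM, Bra028946 and Bra025287 were closest to the averaged profile of CCA1 and both LHY copies, at 0.127 and 0.128. That average joins genes that moved in opposite directions. Bra025287 was at 60.8 ± 16.6 CPM in G564E, 29.7 ± 3.13 in NT and 25.5 ± 2.64 in AtPHYB (mean ± SD of 3 libraries). Closest to the averaged profile of TOC1 and GI were Bra020419 and Bra004880, each at 0.061. Bra020419 was at 62.0 ± 4.96 CPM in NT, 74.3 ± 4.50 in AtPHYB and 42.1 ± 7.68 in G564E.

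The spread between replicates differed widely among the clock genes. The biological coefficient of variation estimated by edgeR was 0.142 for GI, lower than at all but 4.92% of the tested genes, and 0.230 for TOC1, near the median of 0.241. It was 0.302 for CCA1 and 0.347 for LHY Bra030496. LHY Bra033291 at 0.463 and PRR9 at 0.451 were among the more variable genes, above 87.3% and 86.4% of those tested. These shares are over tested genes of all levels, not genes matched for read number. Both genes had few reads in NT and AtPHYB, whereas TOC1 and GI had many. Within G564E, replicate 1 was the lowest library for all 6 clock genes, and replicate 3 the highest for CCA1, both LHY copies and GI.

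**Figure D4:**
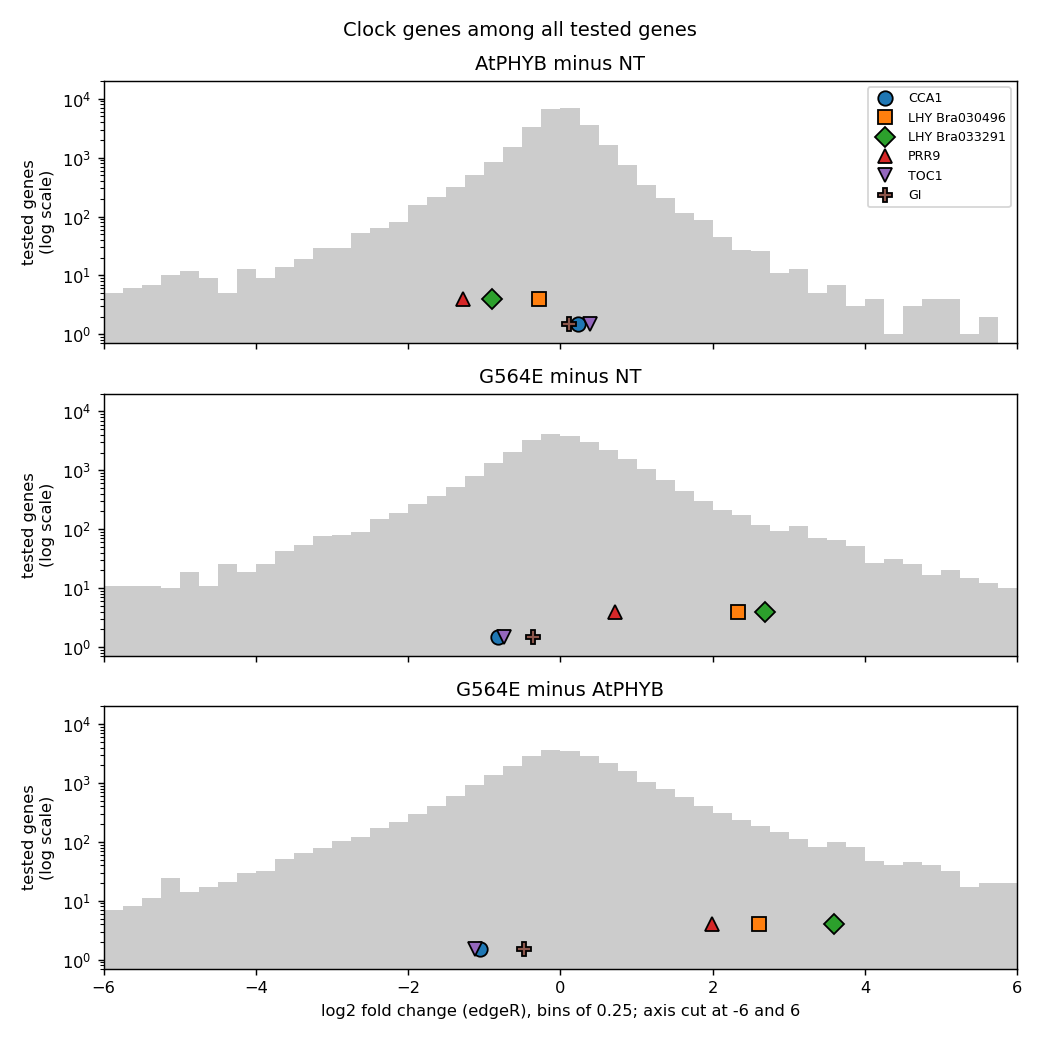
Number of tested genes (y axes, log scale) by log2 fold change (x axis, bins of 0.25, drawn from -6 to 6) in the 3 comparisons, with the clock genes marked at their log2 fold change; the height of a marker has no meaning. In G564E minus AtPHYB, LHY Bra033291 at 3.59 is exceeded by 2.03% of the 27967 tested genes and TOC1 at -1.12 is above 10.1% of them.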

How the data were processed

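The authors deposited a file of raw, unnormalized gene counts for each of 9 libraries from 3 genotypes. Per the submitters' processing notes, FastQC 0.11.8, Trimmomatic 0.39, TopHat2, HTSeq and edgeR were used. Not given in the sources used here: tool settings, genome build, gene annotation and whether counting used strand. Genotype and replicate came from the sample titles. The reference table (CAAS_Brap_v3.01 assembly, 51589 genes) matched 1 file ID and none of the clock genes.

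The counts were tested with edgeR 4.0.16 in R 4.3.3 (filterByExpr, TMM, quasi-likelihood test with a mean per genotype over all 9 libraries, Benjamini-Hochberg adjustment over 27967 genes, threshold 0.05), and the fit was tested on simulated data. Standard errors are the log2 fold change over the square root of F. DESeq2 1.42.0, limma-voom (limma 3.58.1), other scalings, no filter, a replicate block and leaving out libraries were alternatives. The 6 genes, the contrasts and the lists were chosen with earlier results of these data known. All 6 genes are named, and beside them the 2 genes closest in profile to each of the averages described.

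Same-numbered AtPHYB and G564E libraries deviated together from their group means, with correlations of 0.42, 0.33 and 0.13. The labels do not say what a replicate number stands for, so a pairing of these groups is possible but not established. The main fit has no block, and blocked values are given beside the results they change. Between NT and AtPHYB the correlations were -0.10, 0.03 and 0.08, and between NT and G564E -0.16, -0.18 and 0.03. No such likeness was thus seen there.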

Additional observations from a re-analysis of the deposited data

How the results depend on the processing

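Of 320 recomputed log2 fold changes of the clock genes, 291 kept their direction and call, 22 lost the call, 6 gained it and 1 reversed. The reversal was CCA1 in AtPHYB minus NT, -0.13 without AtPHYB replicate 2, and -0.13 to 0.43 over all libraries left out singly. The 291 include genes called in neither fit. In G564E minus AtPHYB the calls of CCA1, PRR9 and GI were lost under 10, 7 and 4 of 18 alternatives. LHY Bra033291 and TOC1 in G564E minus AtPHYB, LHY Bra030496 in G564E minus AtPHYB and LHY Bra033291 in G564E minus NT were called under all 18 alternatives each that kept the 0.05 threshold. At 0.01 LHY Bra033291 in G564E minus NT was not called (edgeR adjusted p = 0.0103). LHY Bra030496 in G564E minus NT lost its call in the replicate block of those genotypes alone (edgeR adjusted p = 0.0781). Same-numbered NT and G564E libraries did not deviate together, and the cause was not tested. Clock genes called in G564E minus NT were 2, against 3 with the replicate block over all libraries and 1 with it in those genotypes alone. They were 1 at the stricter threshold of 0.01 and 4 with DESeq2. In the same order, 7545, 6655, 1726, 3170 and 9436 of all tested genes were called. In G564E minus AtPHYB the 6 were reduced to 3 at 0.01 and 4 with the replicate block. Of all tested genes 4684 were called there at 0.01. With the block 9045 were called over all libraries and 9251 in those genotypes alone. Single libraries left out gave 0, 2 to 3 and 3 to 6 clock genes in the order of the comparisons. The count was 3 without AtPHYB replicate 2 or G564E replicate 2. With NT replicate 3 and G564E replicate 1 both left out, chosen after seeing the data, the counts were 0, 3 and 5. Of all tested genes 3432, 10257 and 14002 were then called.

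Among all tested genes, the 53 called in AtPHYB minus NT became 17 and 21 with the replicate block over all libraries and over those genotypes alone. They became 199 in a fit of those genotypes alone, 6 at the 0.01 threshold, 961 with DESeq2 and 3432 without both libraries that stand apart. The 7545 in G564E minus NT became 1726 with the block in those genotypes alone and 3170 at 0.01, and the 9777 in G564E minus AtPHYB became 4684 at 0.01. Single libraries left out gave 6 to 783, 4829 to 10702 and 6063 to 12878. With library size alone, G564E minus NT had 10012 calls and G564E minus AtPHYB 13255.

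Of 36 recomputed mean levels 32 moved by less than 1 SD. With library size alone, TOC1 in AtPHYB was at 334 CPM, and GI at 93.6 in NT, 94.0 in AtPHYB and 90.2 in G564E. All 84 recomputed mean ratios moved by less than 1 SD. Most of them left out 1 of 3 libraries, which cannot move a mean that far, so this count does not measure stability. The mean ratio of Bra033291 to Bra030496 in AtPHYB was 0.25 without replicate 1 and -0.86 without replicate 3. Depth limits LHY and PRR9, with 2 to 21 reads per library in NT and AtPHYB.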
